A study of Mus musculus with 4 samples.

Results

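The cluster of miR-322, miR-503, miR-351, miR-542 and miR-450 is a run of microRNA hairpins on the mouse X chromosome. Its assays were chosen by name: every assay for miR-322, miR-424, miR-503, miR-351, miR-542, miR-450a or miR-450b, with mouse and rat assays and both arms of a hairpin counted separately. This gave 9 assays of the 375 microRNA assays read in all samples, and 8 of the 9 were among the 229 microRNAs detected in all 4 samples. The rule used no measured value, but the members were chosen with earlier results of these data known. The samples were total RNA from whole C57BL/6 embryos at E18.5, 2 labelled ER-alpha KO and 2 wild-type. ER-alpha is the nuclear estrogen receptor encoded by Esr1, and KO stands for its knockout. The labels give neither the design of the knockout allele, nor the sex of the embryos, nor the number of embryos in a sample. Every p-value here thus reflects the spread among these 4 RNA samples, and technical spread may be part of it. Each TaqMan assay gave a threshold cycle (Ct), the PCR cycle at which its signal crossed a threshold. More RNA gives a lower Ct, and a step of 1 cycle is taken as 1 log2 unit.

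A microRNA pairs with messenger RNAs mainly through its seed, bases 2 to 8 from its 5′ end, and microRNAs with the same seed are expected to share many targets. Mouse miR-322 is the counterpart of human miR-424, and with miR-503 it is known to repress cell-cycle genes such as Cdc25a and to favour the exit of muscle precursors from the cell cycle. MiR-351 carries the seed of the miR-125 family, and miR-542-3p has been reported to repress survivin in human cells. Less is known of miR-450a and miR-450b.

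The 7 hairpins of the cluster were matched by name in RefSeq (GRCm38.p6), where they span chrX:53047997-53054349, 6353 bases, and their mature microRNAs lie on the minus strand. Read in the direction of transcription, the order is Mir322, Mir503, Mir351, Mir542, Mir450-2, Mir450-1 and Mir450b. The Mir322 and Mir503 hairpins are 200 bases apart, and Mir351 follows after 630 bases. A longer interval of 3767 bases separates Mir351 from Mir542. Mir450-2 follows Mir542 after 1035 bases, and the 3 Mir450 hairpins are 54 and 75 bases apart. The hairpins of Mir322, Mir503 and Mir351 lie inside the coordinates of the non-coding RNA gene C430049B03Rik (chrX:53053112-53057190), and the other 4 hairpins lie outside them.

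**Figure D1:**
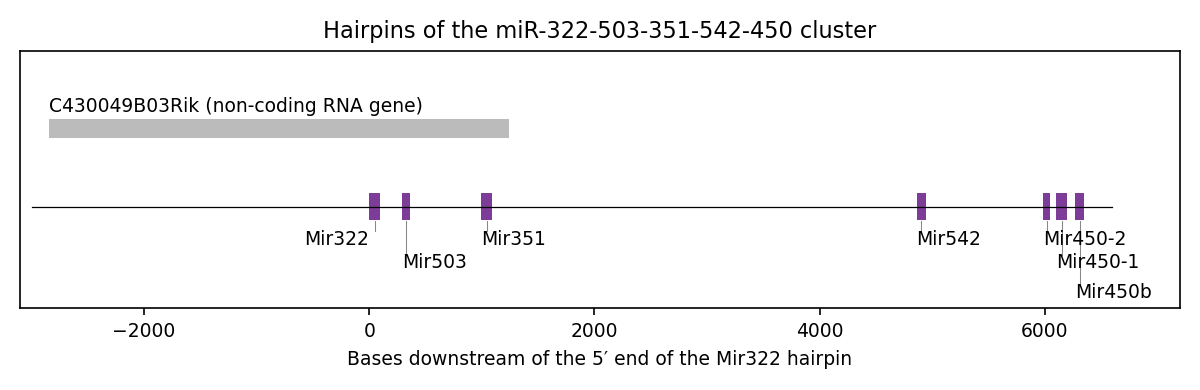
Positions of the 7 hairpins (purple bars, lower line) and of the non-coding RNA gene C430049B03Rik (grey bar), drawn to scale as bases downstream of the 5′ end of the Mir322 hairpin. Mir322, Mir503 and Mir351 lie under the grey bar, and Mir542 and the 3 Mir450 hairpins form a separate downstream set.

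The mature sequences of the cluster are shown because their seeds tell which microRNAs are likely to share targets. They are RefSeq's for GRCm38.p6, written 5′ to 3′, with the seed in capitals. The assay names of miR-322, miR-503 and miR-351 give no arm, so both arms of these hairpins are shown. The 2 rat assays have no sequence here.
mmu-miR-322-5p: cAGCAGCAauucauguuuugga
mmu-miR-322-3p: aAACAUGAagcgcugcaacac
mmu-miR-503-5p: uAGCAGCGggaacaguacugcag
mmu-miR-503-3p: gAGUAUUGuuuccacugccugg
mmu-miR-351-5p: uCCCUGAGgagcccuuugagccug
mmu-miR-351-3p: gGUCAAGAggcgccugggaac
mmu-miR-542-5p: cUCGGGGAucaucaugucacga
mmu-miR-542-3p: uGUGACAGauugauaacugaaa
mmu-miR-450a-5p: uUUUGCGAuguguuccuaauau
mmu-miR-450b-5p: uUUUGCAGuauguuccugaaua

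No 2 of these sequences share a seed. The seeds of miR-322-5p and miR-503-5p differ by A8G, with positions counted from 1 at the 5′ end and the base of miR-322-5p first. Those of miR-450a-5p and miR-450b-5p differ by G7A and A8G. Compared position by position from the 5′ end without gaps, these 2 sequences are identical at 15 of 22 positions. The miR-450a-5p sequence is encoded by both Mir450-1 and Mir450-2, so its assay cannot tell these hairpins apart. Seeds are shared with microRNAs outside the cluster instead. The seed of miR-322-5p is that of the miR-15/16 family and the seed of miR-351-5p is that of the miR-125 family, as the following sequences show.
mmu-miR-16-5p: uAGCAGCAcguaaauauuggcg
mmu-miR-497a-5p: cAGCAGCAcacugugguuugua
mmu-miR-125b-5p: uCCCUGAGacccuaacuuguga

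Compared position by position from the 5′ end without gaps, with the seed included, the likeness is lower than in the seed alone. Alignments with gaps were not made, so a stretch shared at shifted positions is not counted. MiR-322-5p is identical to miR-497a-5p at 15 of 22 positions and to miR-16-5p at 12 of 22, and miR-351-5p is identical to miR-125b-5p at 10 of 22.

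The 85-base Mir542 hairpin (GRCm38.p6, chrX:53049403-53049487, minus strand) is the only one of the cluster with an assay for each arm. It is shown with its 5p and then its 3p arm in capitals.
Mir542 hairpin: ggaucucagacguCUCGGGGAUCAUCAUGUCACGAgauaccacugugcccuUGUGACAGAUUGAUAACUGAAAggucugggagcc

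With detection set at a Ct of 35, the panel detected 260 and 259 microRNAs in ER-alpha KO replicates 1 and 2, and 290 and 254 in wild-type replicates 1 and 2. PCR gives no read counts, so these numbers stand for depth. Wild-type replicate 1 stood apart. Once a constant of 0.273 cycles shared by its wells was taken off, 90.0% of the wells that amplified in it were within 0.1 cycle of a whole number, against 21.0% to 26.5% in the other 3 samples, and all 9 cluster assays were. Its median Ct over the 229 microRNAs was 29.2, against 28.2 and 27.8 in the ER-alpha KO samples and 27.4 in wild-type replicate 2. Its levels for the cluster assays thus come in steps of about 1 log2 unit, and smaller gaps between it and another sample are uncertain. Log2 fold changes and within-sample differences of the cluster assays are therefore also given without wild-type replicate 1. MicroRNAs of tissues that a whole embryo holds were detected in every sample, though not by every assay listed. Of 7 striated-muscle assays, mmu-miR-208 was detected in no sample and mmu-miR-208b only in ER-alpha KO replicate 1. Of 4 neural assays, mmu-miR-219 was detected only in replicate 1 of each genotype. Levels were summed over the assays detected in all samples. The summed levels on the log2 scale were 8.48 and 8.05 in ER-alpha KO against 8.35 and 7.43 in wild-type samples for 5 striated-muscle assays, and 5.48 and 5.16 in ER-alpha KO against 4.37 and 5.02 in wild-type samples for 7 blood-cell assays. For 7 epithelial assays they were 7.05 and 7.03 in ER-alpha KO against 6.27 and 6.72 in wild-type samples, and for 2 endothelial assays 8.10 and 7.75 in ER-alpha KO against 8.05 and 7.30 in wild-type samples. For 3 neural assays they were 4.04 and 4.42 in ER-alpha KO against 5.04 and 3.90 in wild-type samples, and for the liver microRNA mmu-miR-122 3.37 and 2.56 in ER-alpha KO against 2.01 and 2.36 in wild-type samples. Of 10 placental and pluripotent assays, 0 were detected in all samples. Taken sample by sample, 3 and 4 of them were detected in ER-alpha KO samples, and 2 and 4 in wild-type samples. In whole-embryo RNA, fewer cells of a type and less RNA per cell cannot be told apart. The part of these tissues in the cluster's values was not tested.

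No cluster assay differed between ER-alpha KO and wild-type embryos past an adjusted p of 0.05 (limma; 0 of 8, and 0 of all 229 microRNAs, 0%). The highest mean levels in ER-alpha KO relative to wild-type were those of mmu-miR-542-3p (1.60-fold), mmu-miR-322 (1.40-fold) and mmu-miR-503 (1.39-fold). The mouse assay of miR-450a stood at 1.08-fold and its rat assay at 0.40-fold of wild-type, and both miR-351 assays lay between 0.849-fold and 0.875-fold. Over the 8 assays, the 2 samples of a genotype differed by a median of 0.50 log2 units in ER-alpha KO and 0.54 in wild-type.

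MiR-322 and miR-503, whose hairpins are the first of the cluster, gave the earliest mean threshold cycles among its mouse assays. The mmu-miR-322 assay crossed the threshold at 26.5 and 26.6 cycles in ER-alpha KO samples, against 28.3 and 26.4 cycles in wild-type samples. Wild-type replicate 1 came up latest, and the other 3 samples lay between 26.4 and 26.6. To compare samples, each was centred on its median Ct over the 229 microRNAs, and the relative level is minus the centred Ct, on a log2 scale. On that scale mmu-miR-322 stood at 1.70 and 1.21 in ER-alpha KO, against 0.98 and 0.95 in wild-type samples, so both ER-alpha KO samples lay above both wild-type samples, as they did for 76 of the 229 microRNAs (33.2%). The log2 fold change (ER-alpha KO over wild-type) was 0.49 ± 0.64 (SE), which is 1.40-fold, with a 95% interval of -0.76 to 1.74. It did not pass limma's test (adjusted p = 0.939).

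MiR-503, whose 5p arm differs from that of miR-322 by 1 base of the seed, had Ct values of 24.7 and 25.1 in ER-alpha KO samples and 26.2 and 25.1 in wild-type samples. Relative levels were 3.47 and 2.73 in ER-alpha KO, against 2.99 and 2.26 in wild-type samples. The groups overlapped, since ER-alpha KO replicate 2 lay below wild-type replicate 1. The log2 fold change was 0.48 ± 0.64 (SE; interval -0.77 to 1.72), and limma's adjusted p was 0.939. Leaving out wild-type replicate 1 gave 0.84 and leaving out replicate 2 gave 0.11, while the same steps gave 0.50 and 0.48 for mmu-miR-322.

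MiR-351 was read by a mouse and a rat assay, and neither passed the test. The mouse assay had Ct values of 29.3 and 29.1 in ER-alpha KO samples and 30.2 and 28.3 in wild-type samples. Its relative levels were -1.07 and -1.27 in ER-alpha KO, against -1.0 and -0.95 in wild-type samples. Both ER-alpha KO samples lay below both wild-type samples, as they did for 14 of the 229 (6.11%), but the 4 values are close together. The gap between replicate 1 of each genotype was far smaller than 1 cycle, the step of the readings in wild-type replicate 1. The rat assay had Ct values of 27.6 and 27.6 in ER-alpha KO samples and 28.3 and 27.1 in wild-type samples. Relative levels were 0.56 and 0.25 in ER-alpha KO, against 0.98 and 0.30 in wild-type samples, and the groups overlapped. Log2 fold changes were -0.19 for mmu-miR-351 (interval -1.44 to 1.06) and -0.24 for rno-miR-351 (-1.48 to 1.01), with limma adjusted p of 0.954 and 0.939. Scaled to the small-RNA controls, their values were 0.09 and 0.04, so their direction rested on the scaling. Leaving out wild-type replicate 1 gave -0.22 for the mouse and 0.10 for the rat assay.

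The arms of miR-542 were read separately. The mmu-miR-542-3p assay had Ct values of 31.1 and 31.2 in ER-alpha KO samples and 33.3 and 31.0 in wild-type samples. Its relative levels were -2.91 and -3.34 in ER-alpha KO, against -4.02 and -3.59 in wild-type samples, with no overlap of the groups. The log2 fold change of 0.68 was the highest of the cluster (interval -0.57 to 1.92, limma adjusted p = 0.939), and it was 0.46 without wild-type replicate 1. The mmu-miR-542-5p assay had Ct values of 29.4 and 30.0 in ER-alpha KO samples and 30.2 and 30.0 in wild-type samples. Its relative levels were -1.21 and -2.15 in ER-alpha KO, against -1.02 and -2.63 in wild-type samples. The samples of a genotype lay further apart than the genotypes did: wild-type replicates differed by 1.61 log2 units, the widest gap of the 8 assays, and the log2 fold change was 0.14. That value became 0.95 with wild-type replicate 1 left out and -0.66 with replicate 2 left out.

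Setting the arms of Mir542 against each other within a sample needs no scaling between samples. The 3p assay stood 1.70 and 1.19 log2 units below the 5p assay in ER-alpha KO samples, and 3.0 and 0.96 below it in wild-type samples. The groups overlapped, and the difference between them was 0.53 (exact two-sided permutation test p = 1, where a comparison of 2 with 2 cannot go below 0.333). Without wild-type replicate 1 it was -0.49. Among the 15 hairpins of the panel with both arms tested, the absolute difference ranked ninth for Mir542, against a median of 0.62. The efficiencies of the 2 assays are unknown, so a lower 3p reading does not show that less of that arm was present.

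MiR-450a, from the last hairpins of the cluster, gave values that differed by assay. The mmu-miR-450a-5p assay had Ct values of 29.7 and 29.9 in ER-alpha KO samples and 31.2 and 29.2 in wild-type samples. Its relative levels were -1.55 and -2.07 in ER-alpha KO, against -1.98 and -1.85 in wild-type samples, and the groups overlapped, with a log2 fold change of 0.11 (interval -1.14 to 1.35, limma adjusted p = 0.964; 0.04 without wild-type replicate 1). The rno-miR-450a assay came up late, at 33.3 and 34.0 cycles in ER-alpha KO samples and 33.3 and 32.03 cycles in wild-type samples. Its relative levels were -5.11 and -6.21 in ER-alpha KO, against -4.02 and -4.67 in wild-type samples. Both ER-alpha KO samples lay below both wild-type samples, with a log2 fold change of -1.32 (0.40-fold, interval -2.57 to -0.07). Of the 8 assays this one alone had an unadjusted limma p under 0.05, as had 7 of the 229 microRNAs in that direction (3.06%) and 10 in either (4.37%). It did not pass after adjustment (limma adjusted p = 0.880). The unadjusted limma p stayed under 0.05 in 6 of the 13 other settings that gave a value, and it was above 0.05 in the rest, among them the fit with each assay's own variance. The log2 fold change was -0.77 and -1.87 without ER-alpha KO replicates 2 and 1, and -1.0 and -1.65 without wild-type replicates 1 and 2.

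The mouse and rat assays of miR-450a were therefore set against each other within each sample. The name of the rat assay gives no arm and its sequence is not known here, so whether both assays read the same sequence is open. The mouse assay read 3.56 and 4.15 log2 units above the rat assay in ER-alpha KO samples, and 2.04 and 2.82 above it in wild-type samples. Every ER-alpha KO sample had the wider gap, by 1.43 log2 units on average (1.04 without wild-type replicate 1; exact two-sided permutation test p = 0.333, the lowest this design allows). For miR-351 the mouse assay read 1.63 and 1.52 below the rat assay in ER-alpha KO samples, and 1.98 and 1.25 below it in wild-type samples, and the mean distance differed between the genotypes by 0.04 (-0.32 without wild-type replicate 1; exact two-sided permutation test p = 1). Over the 7 microRNAs with a mouse and a rat assay tested, the median absolute difference was 0.47. That of miR-450a ranked second after miR-532-5p (2.40), and without wild-type replicate 1 it was the highest of the 7. The miR-450a pair was looked at because its log2 fold changes (0.11 and -1.32) differed, and 1.43 is that same difference. Its permutation p and its rank are therefore no separate support. The 7 microRNAs share the same 4 samples. A role of the late Ct of the rat assay was not tested.

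**Figure D2:**
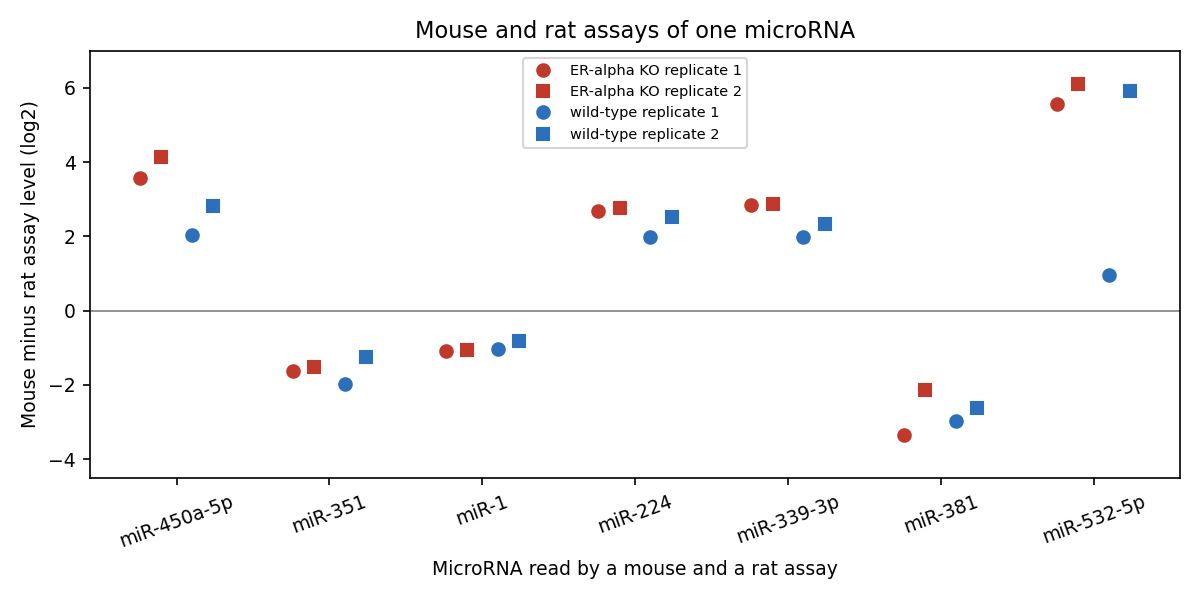
Mouse minus rat assay level (log2 units, vertical axis) in each sample for the 7 microRNAs read by both assays, with ER-alpha KO samples in red and wild-type samples in blue. For miR-450a both ER-alpha KO points (3.56 and 4.15) lie above both wild-type points (2.04 and 2.82), for miR-351 the points are mixed, and for miR-532-5p wild-type replicate 1 lies far below the other 3 samples.

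MiR-450b, the last hairpin, had a reading in 1 sample only. The mmu-miR-450b-5p assay did not amplify in either ER-alpha KO sample or in wild-type replicate 2, and it crossed the threshold at 34.3 cycles in wild-type replicate 1, the sample whose readings lie on whole cycles. It was detected in 1 of 4 samples and was not compared. At a Ct of 35 or lower, 8 and 8 of the 9 assays were detected in ER-alpha KO samples, against 9 and 8 in wild-type samples.

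**Figure D3:**
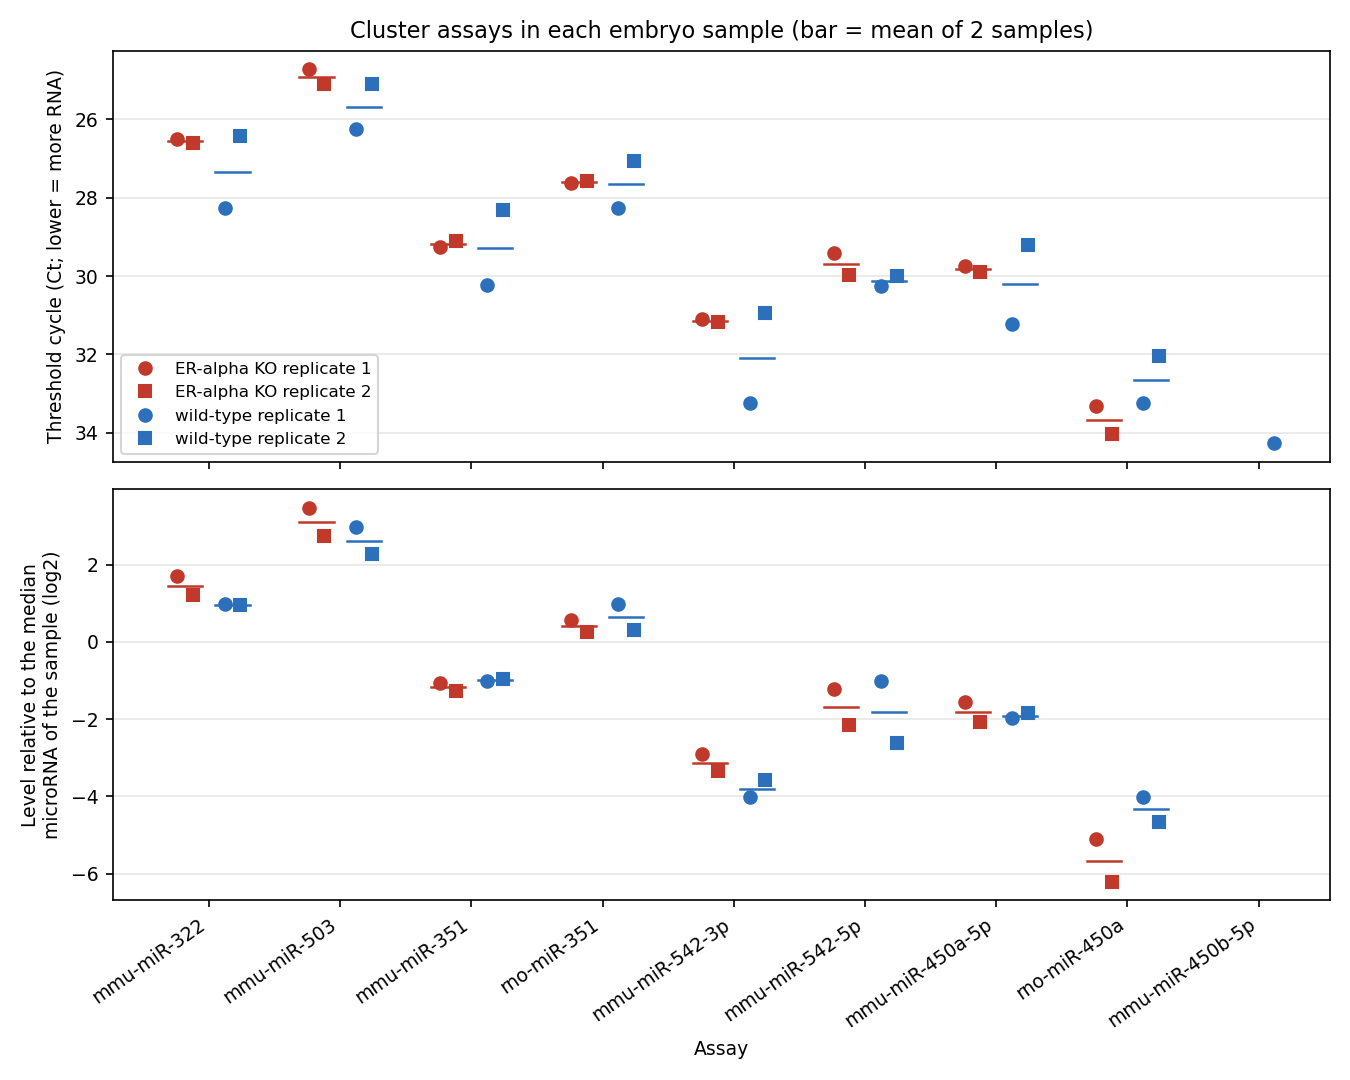
Threshold cycle (upper panel, axis inverted so that more RNA is higher) and level relative to the median microRNA of the sample (lower panel, log2 units) of the cluster assays, with ER-alpha KO samples in red, wild-type samples in blue and bars at the mean of 2 samples. Wild-type replicate 1 (blue circles) comes up latest in 7 of the 8 assays read in all samples, and after centring the groups are separate for mmu-miR-322, mmu-miR-351, mmu-miR-542-3p and rno-miR-450a.

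The order of the assays by level was similar in the 4 samples. Among the 229 microRNAs, mmu-miR-503 ranked 45 by mean level and mmu-miR-322 ranked 87, followed by rno-miR-351 at 103 and mmu-miR-351 at 145. Next came mmu-miR-542-5p at 164, mmu-miR-450a-5p at 166, mmu-miR-542-3p at 194 and rno-miR-450a at 221. These ranks set assays of unknown efficiency side by side. Neighbours were not always apart. In wild-type replicate 1, whose readings lie on whole cycles, mmu-miR-322 and rno-miR-351 both read 0.98, and mmu-miR-542-3p and rno-miR-450a both read -4.02. In every other sample mmu-miR-322 read above rno-miR-351, and mmu-miR-542-3p above rno-miR-450a. The mmu-miR-542-5p and mmu-miR-450a-5p assays changed places between samples. The mmu-miR-503 assay was the highest of the 8 in every sample.

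The 8 tested assays lay on both sides of 0. The log2 fold change was above 0 for 5 of 8, against 156 of all 229, and the cluster median was 0.12, against 0.26 for all tested microRNAs. Centred on the average profile of the samples instead of the median microRNA, these medians were -0.19 and -0.05, so the sign of the cluster median rested on the scaling. Leaving out wild-type replicate 1 gave medians of 0.28 and 0.30, with 6 of 8 above 0, and limma called 0 of the 8 and 1 of the 229 (0.437%). The groups did not overlap for 4 of the 8, against 90 of 229 (39.3%). Both ER-alpha KO samples lay above both wild-type samples for 2 of the 8 (mmu-miR-322 and mmu-miR-542-3p), against 76 of 229 (33.2%). They lay below for 2 of the 8 (mmu-miR-351 and rno-miR-450a), against 14 of 229 (6.11%). These shares were computed with centring on the median microRNA only. Since the median of all microRNAs moves with the scaling, the shares above and below may move too, which was not tested. For the 7 assays other than rno-miR-450a the upper end of the 95% interval lay between 1.01 and 1.92 log2 units. With 2 samples per genotype these data thus do not tell a doubling from no change.

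**Figure D4:**
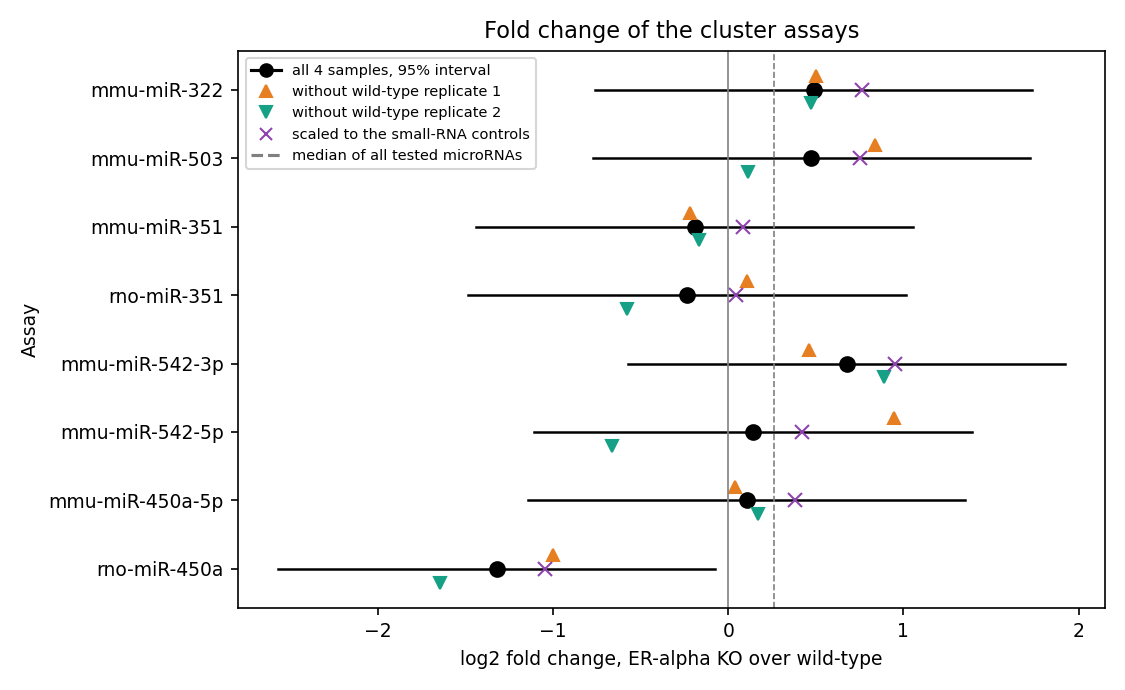
Log2 fold change of ER-alpha KO over wild-type for the 8 tested assays with its 95% interval (black), without wild-type replicate 1 (orange), without wild-type replicate 2 (green) and scaled to the small-RNA controls (purple crosses). The dashed line is the median of all 229 microRNAs (0.26), and only the interval of rno-miR-450a (-2.57 to -0.07) lies on one side of 0.

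The amount of the cluster as a whole was also read against the 5 small-RNA controls. The mean of the 8 assays lay 4.66 and 4.73 log2 units below the mean of the controls in ER-alpha KO samples, and 5.52 and 4.47 below it in wild-type samples. Wild-type replicate 1 was the lowest, and the ER-alpha KO samples lay between the wild-type samples. With this scaling the cluster median was 0.40, against 0.54 for all microRNAs.

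The balance between the assays was compared by setting each against the mean of the 8 in the same sample, which does not depend on how samples are scaled. The mmu-miR-322 assay stood 2.46 and 2.57 log2 units above that mean in ER-alpha KO samples, and 1.86 and 2.22 above it in wild-type samples. The mmu-miR-503 assay stood 4.23 and 4.09 above it in ER-alpha KO, and 3.87 and 3.53 in wild-type samples. Both stood higher against the mean in each ER-alpha KO sample, by 0.47 and 0.46 log2 units on average. The mmu-miR-542-3p assay stood 2.15 and 1.98 below the mean in ER-alpha KO samples, and 3.13 and 2.32 below it in wild-type samples, a difference of 0.66. The rno-miR-450a assay stood 4.35 and 4.86 below the mean in ER-alpha KO samples, and 3.13 and 3.40 below it in wild-type samples, a difference of -1.34. Since the 8 differences add up to 0, the low rat assay raises the others. The groups did not overlap for these 4 of the 8 assays, and the exact two-sided permutation p was 0.333 for each, the smallest possible. For levels centred on the median microRNA, the groups did not overlap for 90 of all 229 (39.3%). That share was not computed for the balance. For both miR-351 assays, mmu-miR-542-5p and mmu-miR-450a-5p the groups overlapped, with differences of -0.21, -0.25, 0.12 and 0.09. Without wild-type replicate 1 the differences of mmu-miR-322, mmu-miR-503, mmu-miR-542-3p and rno-miR-450a were 0.29, 0.63, 0.25 and -1.21, and those of mmu-miR-351, rno-miR-351, mmu-miR-542-5p and mmu-miR-450a-5p were -0.43, -0.10, 0.74 and -0.17.

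A fixed list of 7 microRNAs outside the cluster that share a seed with the 5p arm of miR-322 or miR-351 was tested too. The list is not complete, since RefSeq holds 9 other mature microRNAs with the seed of miR-322-5p and 4 with that of miR-351-5p. By limma 0 of 7 passed in either direction, with a median log2 fold change of 0.31, against 0.26 for all microRNAs; leaving out wild-type replicate 1 gave 0.01 and 0.30. Relative levels of mmu-miR-16, which represses cell-cycle genes through the seed of miR-322-5p, were 7.91 and 7.36 in ER-alpha KO, against 7.01 and 6.79 in wild-type samples (log2 fold change 0.74, and 0.85 without wild-type replicate 1). Those of mmu-miR-15b were 0.43 and 0.42 in ER-alpha KO, against -1.04 and 0.42 in wild-type samples. Its log2 fold change of 0.73 became 0.01 without wild-type replicate 1. The values were 0.41 for mmu-miR-195 (0.31 without wild-type replicate 1) and -0.34 for mmu-miR-125b-5p (-0.34), and the ER-alpha KO samples of mmu-miR-125b-5p, at 2.39 and 2.97, lay below the wild-type samples at 3.03 and 3.02.

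None of the other microRNAs listed for the X chromosome passed limma's test. Of 36 names listed, 35 matched a RefSeq gene, and all 35 lie on the X chromosome. They had 46 assays on the panel, of which 19 were detected in all samples, and limma called 0 of 19 in either direction. The median log2 fold change was 0.35, with 12 of 19 above 0, and 0.39 with 15 of 19 above 0 without wild-type replicate 1. The values furthest from 0 were -1.63 (rno-miR-532-5p), 1.59 (mmu-miR-98, a let-7 relative), 1.55 (mmu-miR-188-5p) and 0.91 (mmu-miR-362-3p). Leaving out wild-type replicate 1 gave 0.60, 1.44, 0.56 and 0.92.

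The tested microRNAs outside the cluster whose profile over the 4 samples was nearest to the mean profile of the 8 cluster assays were mmu-miR-409-5p, mmu-miR-26a and mmu-let-7i. Each assay was centred on its own mean, and the root mean square difference over the 4 samples was 0.08, 0.11 and 0.11 log2 units. The cluster assays themselves lay 0.19 (mmu-miR-450a-5p) to 0.70 (rno-miR-450a) from that mean profile, and the median over the other tested microRNAs was 0.40. The mean profile of the cluster was 0.30 and -0.29 in ER-alpha KO samples and 0.18 and -0.20 in wild-type samples, so samples of 1 genotype differed more than the genotypes did.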

How the data were processed

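MicroRNAs were read by TaqMan real-time PCR on an Applied Biosystems 7900HT over 40 cycles, per the labels' protocols, in 2 ER-alpha KO and 2 wild-type samples. Per the file headers, the authors deposited the threshold cycle (Ct) of each well: 1 well per assay, and 4 for U6, which were averaged here. Threshold, baseline and any normalization are not given in the sources used here. Wells written as undetermined, and 39 wells of wild-type replicate 1 at a single value above cycle 40, were treated as not amplified. Lines without an assay were not used.

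Levels are minus Ct centred on the median of the 229 microRNAs with a Ct of 35 or lower in all samples. This takes 1 cycle as a doubling. The test was limma 3.58.1 under R 4.3.3 (two-sided, lmFit then eBayes, genotype as the only term). The p-values of the 229 were adjusted by Benjamini-Hochberg. eBayes estimated an infinite prior, which gives each assay the same standard error (0.64), and 95% intervals are 1.96 standard errors wide on each side. Values within a sample were compared by exact permutation over samples. Python 3.11.15 with pandas 2.3.3, scipy 1.17.1 and matplotlib 3.10.9 served for reading, permutation and plotting. The fit was tested on simulated data. The planted changes were larger than any seen in the cluster, and no simulated sample had readings on whole cycles. How the fit handles changes as small as those of the cluster was not tested.

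All 9 cluster assays are named. From the seed relatives and the X-chromosome list, the 4 tested assays with the largest absolute fold change are named, and the 3 nearest profiles. The tissue lists (striated muscle, neural, liver, endothelium, epithelium, blood cells, placental and pluripotent) were described only. The members and lists were chosen with earlier results of these data known. Alternatives for the fit were control scaling, no normalization, quantile normalization, average-profile centring, detection at a Ct of 32, and no filter. Each sample was also left out in turn. Further fits used a block for the replicate number, variances without eBayes, trend and robust eBayes, or took off the constant of wild-type replicate 1. A Ct of 38 served only to count detected assays.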

Additional observations from a re-analysis of the deposited data

How the results depend on the processing

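No cluster assay passed an adjusted p of 0.05 in limma under any of the 14 alternatives, and the smallest adjusted p was 0.088, for rno-miR-450a without wild-type replicate 2. Of all microRNAs, 0 to 13 were called when 1 sample was left out (1 and 13 when wild-type replicates 1 and 2 were dropped, with 0 in the cluster). Such a fit assumes that the lone sample varies like the other genotype. With the replicate number as a replicate block 1 was called, outside the cluster. The deviations of samples with the same number had a correlation of 0.37 across assays, and since there are just 2 pairs and the labels leave the meaning of a number unsaid, no pairing was used.

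The cluster median ranged from -0.22 to 0.49 with 1 sample left out, and was -0.08, -0.19 and -0.17 with quantile normalization, average-profile centring and detection at a Ct of 32. Assays mmu-miR-322, mmu-miR-503, mmu-miR-542-3p and rno-miR-450a kept their direction in every alternative that gave a value, and rno-miR-450a ranged from -1.63 to -1.03 with all samples. Neither mmu-miR-542-3p nor rno-miR-450a had a value with detection at a Ct of 32. The other 4 changed direction. With control scaling and no normalization, log2 fold changes were 0.086 and 0.10 for mmu-miR-351, and 0.043 and 0.056 for rno-miR-351. With quantile normalization, average-profile centring and detection at a Ct of 32 they were -0.042, -0.17 and -0.16 for mmu-miR-542-5p, and -0.12, -0.21 and -0.19 for mmu-miR-450a-5p. With 1 sample left out they ranged from -0.58 to 0.10 for rno-miR-351, from -0.66 to 0.95 for mmu-miR-542-5p and from -0.15 to 0.36 for mmu-miR-450a-5p. Against the cluster mean, the differences then ranged from -0.43 to 0.0083 for mmu-miR-351, from -0.49 to 0.74 for mmu-miR-542-5p and from -0.17 to 0.35 for mmu-miR-450a-5p. The scaling moved the median of all microRNAs from -0.05 (average profile) to 0.55 (no normalization), and a change between these 2 moves every assay alike. Quantile normalization does not. It took mmu-miR-542-3p from 0.68 to 0.67, mmu-miR-503 from 0.48 to 0.21 and rno-miR-450a from -1.32 to -1.08. The cause of the other changes was not tested. The 2 samples per genotype limit the precision. The rno-miR-450a assay, at a mean Ct of 33.2, was of the 8 tested the nearest to the detection limit of 35, and a link between Ct and spread was not tested.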

Other observations

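All 8 tested cluster assays read higher in replicate 1 than in replicate 2 of the ER-alpha KO samples, as did 174 of all 229 microRNAs (76%). In the wild-type samples 5 of 8 did, and 119 of all 229 (52%). The assay with the widest gap in wild-type samples was mmu-miR-542-5p. Its levels were -1.21 in replicate 1 and -2.15 in replicate 2 of ER-alpha KO, against -1.02 and -2.63 in wild-type samples. The 5 small-RNA controls did not move alike between the replicates. U87 came up earlier in replicate 1 of both genotypes, with Ct values of 26.1 and 28.3 in ER-alpha KO samples and 26.3 and 27.8 in wild-type samples. The other 4 came up later in replicate 1 of both. MammU6 read 15.8 and 15.6 in ER-alpha KO samples, against 16.03 and 15.9 in wild-type samples, and Y1 read 29.9 and 29.3 in ER-alpha KO samples, against 29.2 and 28.8 in wild-type samples. For snoRNA135 the Ct values were 25.4 and 25.3 in ER-alpha KO samples and 26.3 and 24.9 in wild-type samples, and for snoRNA202 they were 24.4 and 23.7 in ER-alpha KO samples and 25.2 and 23.4 in wild-type samples. The labels do not say what a replicate number marks, and a link between these values was not tested.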
